A study of Mus musculus with 6 samples.

Results

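The genes for 6 costimulatory receptors of T cells were followed across the T cells of mouse skin. Tnfrsf9, Tnfrsf4, Tnfrsf18 and Cd27 encode receptors of the TNF receptor family (4-1BB, OX40, GITR and CD27), and Icos and Cd28 encode receptors of the immunoglobulin family. They were taken by name, as 6 of the 16158 genes in the deposited tables, and each had a column in all 6 libraries. Single-cell RNA was measured in skin of 6 mice of the NINJA strain, in which a neoantigen can be induced. All 6 mice were 6 to 12 weeks old, and in every group the cells came from a skin area treated with 4-OH-Tam. The 3 groups hold 2 mice each and are called antigen off (NO_AG), antigen on (AG) and antigen on with CPI (AG_CPI). The labels do not spell out CPI and give no sex, batch or date. They state that P14 CD8 T cells, T cells with a fixed transgenic receptor, were recovered from each animal, so the CD8 T cells may include such cells.

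A T cell that meets its antigen needs a further signal from costimulatory receptors to divide and survive. CD28 and CD27 are present on resting T cells and bind ligands of the B7 family and CD70. ICOS, 4-1BB, OX40 and GITR appear or rise after activation, and their ligands sit mainly on antigen-presenting cells. The TNF receptor family members signal through TRAF adaptors to NF-kB, whereas CD28 and ICOS recruit phosphoinositide 3-kinase. Foxp3-expressing regulatory T cells are known for carrying high levels of OX40, GITR and ICOS.

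The genes lie in 2 small clusters and at 2 single sites, in coordinates of GRCm38 (GENCODE M21). Tnfrsf4 (chr4:156013843-156016612) and Tnfrsf18 (chr4:156026164-156028895) are neighbours on the plus strand of chromosome 4, 9551 bases apart. Tnfrsf9 (chr4:150914562-150946102) lies nearer the start of the same chromosome, 5067740 bases from Tnfrsf4. Cd28 (chr1:60716800-60773359) and Icos (chr1:60977927-61000320) lie 204567 bases apart on the plus strand of chromosome 1, with Ctla4 between them, and Cd27 (chr6:125232622-125237010) is on the minus strand of chromosome 6. The 250 bases before a start site are printed for the 3 TNF receptor genes that were called higher in Foxp3 than in CD4 T cells, from RefSeq (GRCm38.p6). Capitals mark matches to the NF-kB consensus and to the AP-1 motif TGANTCA. The Tnfrsf9 window belongs to its second RefSeq start site, and both of its RefSeq windows lie inside the gene as placed above. The Tnfrsf18 window crosses the start of its gene as placed above.
Tnfrsf9, chr4:150927749-150927998, plus strand: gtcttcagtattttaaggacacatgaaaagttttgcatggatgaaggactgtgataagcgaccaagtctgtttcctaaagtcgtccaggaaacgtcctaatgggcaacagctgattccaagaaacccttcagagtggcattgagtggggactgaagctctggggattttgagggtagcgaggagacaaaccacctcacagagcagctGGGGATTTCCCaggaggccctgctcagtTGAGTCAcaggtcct
Tnfrsf4, chr4:156013445-156013694, plus strand: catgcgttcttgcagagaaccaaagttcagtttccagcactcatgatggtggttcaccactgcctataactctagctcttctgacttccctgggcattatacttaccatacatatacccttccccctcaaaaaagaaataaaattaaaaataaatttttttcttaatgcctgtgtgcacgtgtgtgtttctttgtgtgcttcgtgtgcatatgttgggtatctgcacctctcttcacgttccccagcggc
Tnfrsf18, chr4:156026072-156026321, plus strand: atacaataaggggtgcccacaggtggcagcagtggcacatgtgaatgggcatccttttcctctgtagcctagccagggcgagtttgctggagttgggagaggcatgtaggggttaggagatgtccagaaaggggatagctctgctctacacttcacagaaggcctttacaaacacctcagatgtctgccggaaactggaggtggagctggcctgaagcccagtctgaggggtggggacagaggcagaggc
The Tnfrsf9 window held overlapping NF-kB matches, the nearest ending 32 bases before the start, and an AP-1 match ending 8 bases before it. Both strands were searched, and the AP-1 motif reads the same on either. Among 32851 RefSeq windows of that length, 3.9% held the NF-kB consensus and 6.75% held TGANTCA. The windows of Tnfrsf4 and Tnfrsf18 held neither of these letters, nor did those of Cd27 and of the other Tnfrsf9 start site. All 5 windows held GGAAA, the core recognised by NFAT, as did 55.6% of all windows.

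T cells were defined by UMIs (unique molecular identifiers, counted molecules) of genes other than these 6. A T cell had at least 2 UMIs over Cd3d, Cd3e and Cd3g. CD8 T cells had Cd8a or Cd8b1 and neither Cd4 nor Foxp3. CD4 T cells had Cd4 without Foxp3, Cd8a, Cd8b1 or Trdc, and Foxp3 T cells had Foxp3 without Cd8a, Cd8b1 or Trdc. Gamma-delta T cells had Trdc without Trac, Cd4, Cd8a, Cd8b1 or Foxp3. Of 20460 retained cells, 4662 were CD8, 328 CD4, 385 Foxp3 and 1044 gamma-delta T cells. Per mouse there were 132 to 1184 CD8, 20 to 108 CD4, 15 to 160 Foxp3 and 6 to 414 gamma-delta T cells, with median UMIs of 2327 to 2998, 2136.5 to 3152, 2322.5 to 2972 and 1822.5 to 2974 per cell. The level of a gene is its mean, over the cells of 1 class in 1 mouse, of UMIs scaled to 10000 per cell. Such a level is not corrected for gene length, so levels are compared within a gene and not between genes.

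The classes were checked against markers not used to define them. The summed level of 6 regulatory T cell genes (Il2ra, Ctla4, Ikzf2, Ikzf4, Capg and Gata3) was 31.1 to 47.2 in Foxp3 T cells against 7.11 to 15.5 in CD8 T cells. CD4 T cells lay between and overlapped Foxp3 T cells at 13.2 to 32.8. Capg made up most of the sum in CD8 T cells and did not separate the classes. In NO_AG 2 and AG_CPI 1 it was lower in Foxp3 (13.3 and 7.44) than in CD8 T cells (13.6 and 8.66). The cytotoxic genes Nkg7, Ccl5, Gzmb and Gzmk did not separate the classes across groups: they summed to 59.7 to 61.9 in CD8 T cells of NO_AG, 54.9 to 75.7 in CD4 T cells of AG_CPI and 67.1 in gamma-delta T cells of AG 2. One library stood apart. In AG_CPI 1, cells without a Cd3 UMI held 78 UMIs of the Y-linked gene Ddx3y, of which the other 5 libraries held none. The share of those cells with Xist was 0.227% there and 65.2% to 86.0% elsewhere, yet 57.6% of the CD8 T cells of AG_CPI 1 had Xist, against 2.44% of its T cells outside the CD8 gate. Its CD8 T cells and its other cells thus differed in a sex-linked gene, and calls of the 6 genes that rest on it are also given without it. Pairs of libraries shared 5 to 35 cell barcodes.

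Free RNA sets a floor under low values. In cells with at least 10 UMIs of Krt5 and Krt14 and none of Cd3 or Ptprc, a keratinocyte gate, Cd28 ranged from 0 to 0.0819 per 10000 over the 6 mice and Cd27 from 0 to 0.034. Icos reached 0.171 and Tnfrsf9 0.239 in AG 2, the highest of the 6, whereas the other 5 mice did not exceed 0.0329 for Icos and 0.0293 for Tnfrsf9. Tnfrsf4 (0.13 to 0.441) and Tnfrsf18 (0.709 to 1.04) were measured in keratinocyte-gated cells of every mouse, so that gate does not serve as a floor for them. Median depth there was 2717 to 7168 UMIs. A mean level does not tell fewer expressing cells from less RNA per cell.

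**Figure D1:**
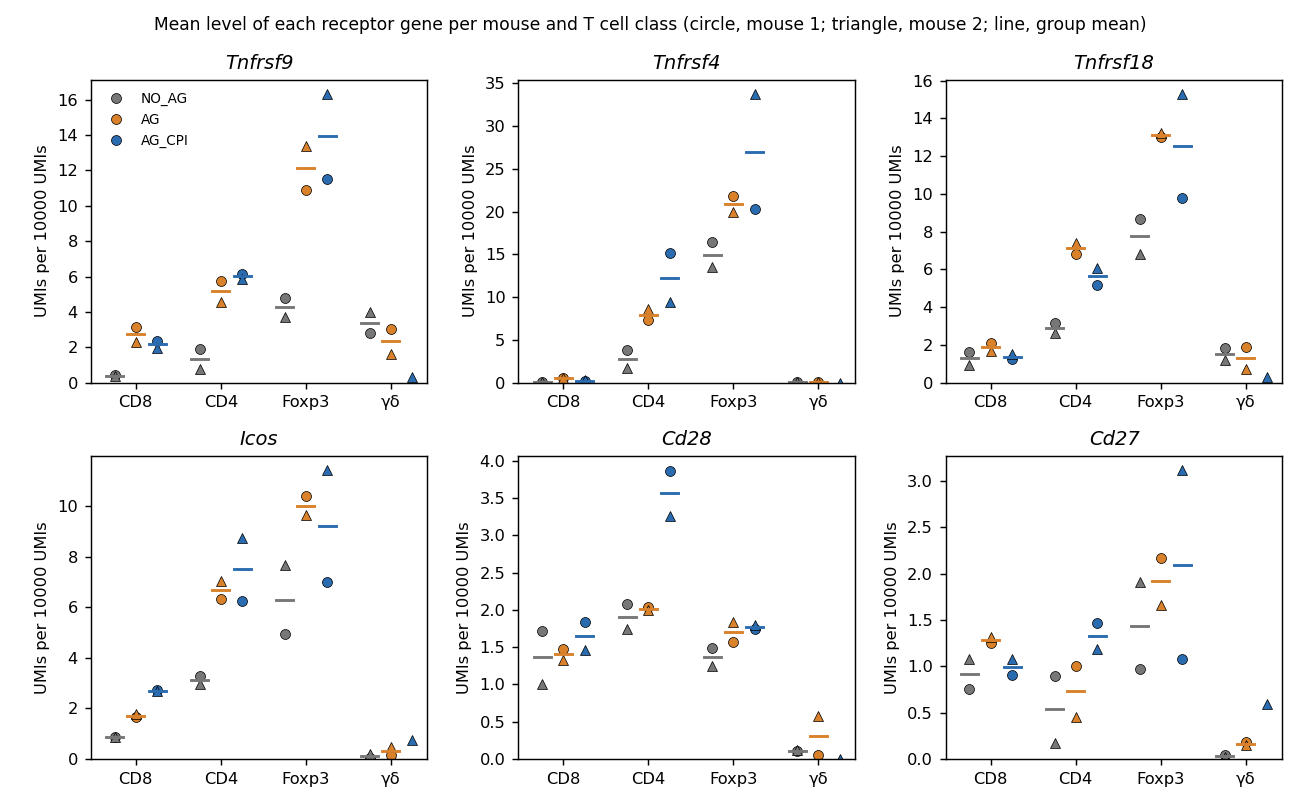
Mean level of each receptor gene (mean UMIs scaled to 10000 per cell, vertical axis from 0, a separate scale per gene) in CD8, CD4, Foxp3 and gamma-delta (γδ) T cells. Each symbol is 1 mouse with at least 10 cells of the class and each line the mean of 2 mice; Foxp3 T cells hold the highest group means of Tnfrsf9, Tnfrsf4 and Tnfrsf18, although gamma-delta T cells of NO_AG 2 (4.01) lie above its Foxp3 T cells (3.71) for Tnfrsf9, and these classes were not tested against each other.

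The 6 genes divided the T cell classes in different ways. OX40 (Tnfrsf4), GITR (Tnfrsf18), 4-1BB (Tnfrsf9) and ICOS transcripts were higher in Foxp3 than in CD4 T cells of the same mouse, and all 4 of them were lower in CD8 than in CD4 T cells. Cd28 was lower in CD8 than in CD4 T cells too, while Cd27 did not pass the test between those classes. Gamma-delta T cells held little Cd28, Cd27, Icos or Tnfrsf4 but held Tnfrsf9. Classes were compared within mice by limma with the mouse as a block, with adjusted p-values over all genes tested and a threshold of 0.05.

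Against CD4 T cells, 4 of the 6 genes were called in Foxp3 T cells and all 4 were higher, where 0.943% of the 4982 genes tested were called higher and 2.37% in either direction. Tnfrsf4 had a median level of 20.1 (range 13.5 to 33.7) in Foxp3 T cells and 7.93 (1.7 to 15.1) in CD4 T cells over 6 mice. The log2 difference was 1.62 (SE 0.21, limma adjusted p = 0.000679), and it was positive in 6 of 6 mice, from 0.39 in AG_CPI 1 to 2.87 in NO_AG 2. The ranges of the classes overlapped only because CD4 T cells of AG_CPI 1 reached 15.1. Tnfrsf18 differed by 1.08 (SE 0.12, limma adjusted p = 0.000162) and varied least among mice, from 0.81 to 1.35. Tnfrsf9 differed by 1.33 (SE 0.15, limma adjusted p = 0.00023), from 0.86 to 2.05. The 3 TNF receptor genes remained called without any single mouse, AG_CPI 1 included, where the differences were 1.87 for Tnfrsf4, 1.13 for Tnfrsf18 and 1.42 for Tnfrsf9. Without the filter on low values the Tnfrsf4 call was lost (adjusted p = 0.0505). Against CD4 T cells without Il2ra or Ikzf2 the differences were larger, at 2.76 for Tnfrsf4, 1.95 for Tnfrsf18 and 3.79 for Tnfrsf9.

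Icos was also higher in Foxp3 T cells of 6 of 6 mice, by 0.56 on the log2 scale (SE 0.14, limma adjusted p = 0.0447), close to the threshold. That call was lost without AG 1, AG 2, AG_CPI 2, NO_AG 1 or NO_AG 2 (adjusted p from 0.0901 to 0.159), and it held without AG_CPI 1 at 0.0167. It was also lost in 5 other processing settings, with an adjusted p of up to 0.267. Cd28 had the other sign in 6 of 6 mice, with a difference of -0.59 (SE 0.18, limma adjusted p = 0.135) that did not pass. Cd27 differed by 1.06 (SE 0.34, limma adjusted p = 0.163), with AG_CPI 1 at -0.44 and the other 5 mice between 0.02 and 2.86. Without AG_CPI 1 the Cd27 difference was 1.36 and passed (adjusted p = 0.0291). Against CD4 T cells without Il2ra or Ikzf2, Cd27 (1.99, adjusted p = 0.000894) and Cd28 (-0.76, adjusted p = 0.0401) both passed. An exact two-sided sign-flip permutation test over the 6 mice gave p = 0.03125 for each of Tnfrsf4, Tnfrsf18, Tnfrsf9, Icos and Cd28, the smallest it can give, and 0.09375 for Cd27.

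CD8 T cells carried less of 5 of the 6 genes than CD4 T cells, where 1.16% of the 7435 genes tested were called lower and 2.66% in either direction. Tnfrsf4 showed the largest of these differences, at -4.31 on the log2 scale (SE 0.23, limma adjusted p = 3.38e-11). Its level in CD8 T cells was 0.0424 to 0.59 over 6 mice, below every CD4 value. Icos differed by -1.65 (SE 0.13, limma adjusted p = 2.95e-08) and Tnfrsf18 by -1.63 (SE 0.14, limma adjusted p = 1.97e-07), both in 6 of 6 mice. Icos had a median of 1.71 in CD8 and 6.29 in CD4 T cells, and Tnfrsf18 medians of 1.55 and 5.64. Over 11 other processing settings the difference ran from -4.33 to -3.18 for Tnfrsf4 and from -1.66 to -0.78 for Tnfrsf18, all called. Cd28, the receptor with the most even level across alpha-beta T cells, differed by -0.66 (SE 0.15, limma adjusted p = 0.014), with medians of 1.47 and 2.05. The Cd28 call was lost without AG_CPI 1 (adjusted p = 0.0557) or AG_CPI 2 (0.0797), the mice with the highest CD4 values, without the filter on low values (0.084) and with cells thinned to 1500 UMIs (0.165). Without AG_CPI 1, whose CD8 and other T cells differed in Xist, the differences were -4.04 for Tnfrsf4, -1.76 for Icos, -1.58 for Tnfrsf18 and -1.21 for Tnfrsf9, all called. Cd27 was higher in CD8 T cells of 3 of 6 mice (0.49, SE 0.27, limma adjusted p = 0.479). It passed against CD4 T cells without Il2ra or Ikzf2 (1.40, adjusted p = 0.00624).

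Tnfrsf9 differed by -1.22 between CD8 and CD4 T cells (SE 0.16, limma adjusted p = 3.21e-05), and its sign depended on which CD4 T cells were counted. Il2ra and Ikzf2 are genes of regulatory T cells, and Il2ra is also known to rise when T cells are activated. CD4 T cells with an Il2ra or Ikzf2 UMI had Tnfrsf9 levels of 7.7 and 6.8 in the NO_AG mice, 12.0 and 7.7 in the AG mice and 12.9 and 9.28 in the AG_CPI mice. Those without either had 0 and 0.0439 in the NO_AG mice, 1.45 and 1.37 in the AG mice and 2.53 and 0.703 in the AG_CPI mice. No mouse of one set reached any mouse of the other. With CD4 T cells lacking both genes, the CD8 minus CD4 difference of Tnfrsf9 reversed to 1.22 (limma adjusted p = 0.013), an alternative added after seeing the data in which CD8 T cells were not filtered on these genes. Tnfrsf4 kept its direction there, with CD4 T cells without Il2ra or Ikzf2 at 1.47 and 1.38 in the NO_AG mice, 2.56 and 3.34 in the AG mice and 7.68 and 3.61 in the AG_CPI mice. The cells with either gene numbered 5 to 47 per mouse and those without 10 to 64.

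Among gamma-delta T cells, 4 of the 6 genes were called lower than in CD8 T cells, where 6.44% of the 8108 genes tested were called lower and 14.1% in either direction. The comparison used 5 mice, because AG_CPI 1 had 6 such cells, and AG_CPI 2 entered with 16. Cd28 differed by -2.85 (SE 0.36, limma adjusted p = 0.000333), Cd27 by -2.34 (SE 0.31, limma adjusted p = 0.000468) and Icos by -2.24 (SE 0.24, limma adjusted p = 0.000111), each in 5 of 5 mice. Over 10 other processing settings the smallest sizes were -1.58 for Cd28, -1.27 for Cd27 and -1.37 for Icos, and all 3 stayed called. Median levels in gamma-delta T cells were 0.101 for Cd28, 0.153 for Cd27 and 0.19 for Icos. Tnfrsf4 differed by -1.28 (SE 0.37, limma adjusted p = 0.0401), in 4 of 5 mice. Its differences were -0.35 and 0.07 in the NO_AG mice, -2.19 and -2.01 in the AG mice and -1.94 in AG_CPI 2. The call was lost without AG 1 (adjusted p = 0.171) or AG 2 (0.156). It was also lost in 6 of 10 other processing settings, with an adjusted p of up to 0.153, and with a pseudocount of 0.5 the difference was -0.52. The smallest exact sign-flip permutation p for 5 mice is 0.0625, which Cd28, Cd27 and Icos had. GITR differed by -0.63 (SE 0.29, limma adjusted p = 0.196) and did not pass.

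For Tnfrsf9, gamma-delta T cells lay above CD8 T cells in NO_AG and close to or below them in AG, a change between groups that was not tested. Gamma-delta T cells had 2.78 and 4.01 in NO_AG, where CD8 T cells had 0.406 and 0.383, so the log2 differences there were 2.4 and 3.0. In AG the gamma-delta values were 3.05 and 1.63 beside CD8 values of 3.16 and 2.3, with differences of -0.10 and -0.52. In AG_CPI 2, with 16 gamma-delta T cells, the difference was -2.42. Over 5 mice the difference was 0.47 (SE 0.61, limma adjusted p = 0.687), and its sign reversed without NO_AG 1 or NO_AG 2. The Tnfrsf9 of gamma-delta T cells sat with the delta segment Trdv4, the segment of the receptor of dendritic epidermal T cells. Gamma-delta T cells with a Trdv4 UMI had 3.11 and 4.58 in NO_AG and 3.39 and 1.82 in AG. Those without had 0.645 and 0.788 in NO_AG and 0.553 and 0.509 in AG. The sets did not overlap in these 4 mice, a description with no test.

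**Figure D2:**
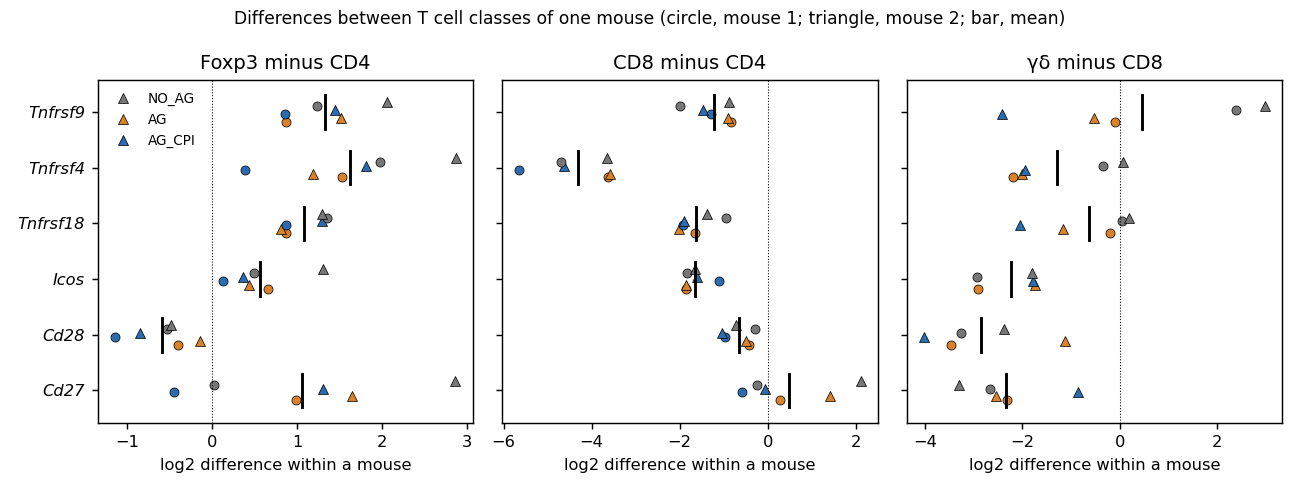
Log2 difference (horizontal axis) of each receptor gene between T cell classes of the same mouse, on the scale of log2 (level + 0.1). Symbols are mice coloured by group and bars their mean; Tnfrsf4, Tnfrsf18, Tnfrsf9 and Icos lie above 0 for Foxp3 minus CD4 in 6 of 6 mice and below 0 for CD8 minus CD4 in 6 of 6.

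Read per gene, the order of the median levels was Foxp3, CD4, CD8, gamma-delta for Tnfrsf4, Tnfrsf18 and Icos. CD8 and gamma-delta T cells did not differ beyond their spread for Tnfrsf18. Tnfrsf9 had the order Foxp3 (11.2), CD4 (5.15), gamma-delta (2.78) and CD8 (2.14), with the last pair not separated by the test. Cd28 had the order CD4 (2.05), Foxp3 (1.65), CD8 (1.47) and gamma-delta (0.101), where CD4 and Foxp3 T cells were not separated by the test and Foxp3 against CD8 was not tested. Cd27 had the order Foxp3 (1.79), CD8 (1.08), CD4 (0.953) and gamma-delta (0.153), and no neighbouring pair that was tested among the first 3 passed.

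With antigen on, CD8 T cells of the skin carried more 4-1BB, OX40 and ICOS transcript. Against NO_AG, 3 of the 6 genes rose in AG CD8 T cells and none fell, where 1.07% of the 7384 genes tested were called higher and 1.35% in either direction. Tnfrsf9 and Icos rose from levels above background and Tnfrsf4 from a level near it. GITR, CD27 and CD28 transcripts did not pass the test. The median log2 fold change of the 6 genes was 0.74 beside -0.05 over all genes tested.

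Tnfrsf9, whose product 4-1BB marks recently stimulated CD8 T cells, was at 0.406 and 0.383 in CD8 T cells of NO_AG 1 and 2 and at 3.16 and 2.3 in AG 1 and 2. Both AG mice lay above both NO_AG mice, with a log2 fold change of 2.51 (SE 0.19, limma adjusted p = 0.000111). The share of CD8 T cells with a Tnfrsf9 UMI was 7.58% and 8.62% in NO_AG and 37.0% and 37.3% in AG. After thinning every cell to 1500 UMIs it was 4.55% and 3.45% against 25.9% and 22.4%. The call held without each mouse in turn, with fold changes from 2.32 to 2.70.

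Tnfrsf4 was at 0.0571 and 0.0424 in NO_AG CD8 T cells and at 0.486 and 0.59 in AG, with no overlap and a log2 fold change of 2.09 (SE 0.22, limma adjusted p = 0.0011). Only 2 and 6 UMIs stood behind the NO_AG values. The share of CD8 T cells with a Tnfrsf4 UMI, 1.52% and 1.48% in NO_AG, was like that of gamma-delta T cells of the same mice, 1.21% and 2.24%. In AG it was 7.2% and 10.9% in CD8 T cells against 0.532% and 2.8% in gamma-delta T cells. The NO_AG level of Tnfrsf4 is read as background, and the size of the rise depends on the value added before taking logs: with 0.5 in place of 0.1 it was 0.92 and still passed. Tnfrsf4 passed the filter on low values only through mice with antigen on, since both NO_AG values lie below its cut of 0.1. Without that filter the calls of Tnfrsf4 (adjusted p = 0.0657) and Icos were lost.

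Icos was at 0.866 and 0.864 in NO_AG CD8 T cells and at 1.66 and 1.77 in AG, and the pairs of values did not overlap. Its log2 fold change was 0.92 (SE 0.16, limma adjusted p = 0.0193). The size barely moved when mice were left out, from 0.85 to 1.00, but the call was lost without AG 2, AG_CPI 1, AG_CPI 2, NO_AG 1 or NO_AG 2 (adjusted p from 0.0532 to 0.118), and with cells thinned to 1500 UMIs (0.0575). Without AG_CPI 1, Tnfrsf9 (2.52) and Tnfrsf4 (2.10) were called and Icos (0.93, adjusted p = 0.0624) was not. Without cells that carry Trbv13-3, Icos had 0.67 (adjusted p = 0.334), Tnfrsf9 1.63 (0.0272) and Tnfrsf4 2.41 (0.00355). The cells that remain include CD8 T cells with no Trbv UMI. In cells with a UMI of another Trbv gene, Tnfrsf9 was at 0.314 and 0.316 in the NO_AG mice and at 0.452 and 1.32 in the AG mice, a pair not tested.

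Tnfrsf18 and Cd27 were higher in both AG mice than in both NO_AG mice without passing the test. Tnfrsf18 was at 1.61 and 0.957 in NO_AG and at 2.08 and 1.66 in AG (0.56, SE 0.24, limma adjusted p = 0.344). Cd27 was at 0.759 and 1.08 in NO_AG and at 1.25 and 1.32 in AG (0.47, SE 0.19, limma adjusted p = 0.325). Cd28 overlapped between the groups, at 1.71 and 1.01 against 1.48 and 1.33 (0.09, SE 0.24, limma adjusted p = 0.898). In all, 5 of the 6 genes had both AG mice above both NO_AG mice, as did 17.1% of all genes tested. The summed level of Nkg7, Ccl5, Gzmb and Gzmk in these CD8 T cells was 59.7 to 61.9 in NO_AG and 168.2 to 168.4 in AG. That of 4 NK cell genes was 2.74 to 2.96 and 9.76 to 9.85, with Ncr1 at 0 in all 4 of these mice. Most of each NK sum was Klrd1, at 2.5 and 2.89 in NO_AG and 9.69 and 9.35 in AG. Klrb1c and Eomes overlapped between the groups. In the same cells 8 myeloid genes summed to 4.11 to 5.9 in NO_AG and 6.22 to 11.7 in AG. The sum of 8 keratinocyte genes was 8.74 to 11.9 in NO_AG and 7.57 to 24.5 in AG. The part of these marker genes in the receptor values was not tested. The gamma-delta gene Trdc also differed inside the CD8 gate, whose cells with Trdc all have Trac. It had a UMI in 2 of 132 and 2 of 406 cells in the NO_AG mice and in 205 of 986 and 202 of 879 in the AG mice. With those cells left out Tnfrsf9 and Tnfrsf4 were called and Icos was not (0.82, adjusted p = 0.0538). Most of the cells left out with a Trbv UMI carried Trbv13-3. In the AG mice, cells with Trbv13-3 went from 468 and 465 to 281 and 305. Cells with another Trbv gene went from 376 and 140 to 376 and 137.

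CD4 T cells showed higher values of 4 of the 6 genes in AG, and none passed. No gene of the 6 was called by limma, where 0.0272% of the 3682 genes tested were, and 4 of the 6 had an unadjusted p under 0.05. Tnfrsf9 was at 1.87 and 0.795 in NO_AG and at 5.74 and 4.57 in AG (1.93, SE 0.38, limma adjusted p = 0.132). Tnfrsf4 was at 3.87 and 1.7 in NO_AG and at 7.28 and 8.59 in AG (1.53, SE 0.38, limma adjusted p = 0.301). Tnfrsf18 was at 3.14 and 2.65 in NO_AG and at 6.83 and 7.4 in AG (1.22, SE 0.24, limma adjusted p = 0.132), and Icos at 3.28 and 2.95 against 6.34 and 7.03 (1.03, SE 0.25, limma adjusted p = 0.301). For each of these 4 genes the AG mice lay above the NO_AG mice, a pattern seen in 22.3% of all genes tested in CD4 T cells. Cd28 was at 2.07 and 1.74 against 2.03 and 2.0, and Cd27 at 0.899 and 0.171 against 1.01 and 0.456, so both overlapped. With 37 and 45 CD4 T cells, the NO_AG values rest on few UMIs, such as 14 and 12 for Tnfrsf9.

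Markers of other cell types differed between the groups in the CD4 gate. The summed level of 8 myeloid genes was 0.735 to 4.31 in NO_AG, 22.9 to 26.0 in AG and 6.44 to 6.69 in AG_CPI. Most of each sum was Cd74, at 23.4 and 17.0 in the AG mice. Fcer1g was at 0.74 and 0 in the NO_AG mice and at 0.815 and 2.33 in the AG mice. Lyz2, C1qa, C1qb and Csf1r were at 0 in the NO_AG and AG_CPI mice and above 0 in both AG mice. They did not exceed 0.799, 1.1, 1.62 and 0.162. That of the cytotoxic genes Nkg7, Ccl5, Gzmb and Gzmk was 10.2 to 14.8, 17.3 to 50.8 and 54.9 to 75.7. The 6 regulatory T cell genes summed to 13.2 to 14.8, 19.0 to 22.6 and 22.2 to 32.8, and the 8 keratinocyte genes to 3.06 to 28.4, 3.77 to 10.99 and 1.08 to 1.6. Their part in the CD4 values was not tested.

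Foxp3 T cells already held high levels in NO_AG, and Tnfrsf9 showed the largest difference there. No gene of the 6 was called by limma in AG against NO_AG, nor was any of the 4260 genes tested (0%), and 3 of the 6 had an unadjusted p under 0.05. Tnfrsf9 was at 4.8 and 3.71 in NO_AG and at 10.9 and 13.4 in AG (1.49, SE 0.27, limma adjusted p = 0.183). Tnfrsf18 was at 8.67 and 6.81 against 13.0 and 13.2 (0.76, SE 0.27, limma adjusted p = 0.99), and Icos at 4.93 and 7.67 against 10.4 and 9.64 (0.69, SE 0.30, limma adjusted p = 0.99). Tnfrsf4 was at 16.5 and 13.5 against 21.8 and 19.9 (0.48, SE 0.26, limma adjusted p = 0.99). In these 4 genes and in Cd28 (1.49 and 1.25 against 1.57 and 1.83) the groups did not overlap, as in 23.1% of genes with AG above. Cd27 overlapped, at 0.972 and 1.91 against 2.17 and 1.66. In the Foxp3 gate the cytotoxic genes Nkg7, Ccl5, Gzmb and Gzmk summed to 2.94 to 4.11 in NO_AG, 19.5 to 25.5 in AG and 7.86 to 33.0 in AG_CPI, with Gzmk at 0 in every mouse. The 8 myeloid genes summed to 8.3 to 13.8, 12.2 to 30.3 and 7.07 to 9.45, and 8 keratinocyte genes to 14.0 to 29.9, 9.21 to 11.4 and 1.76 to 19.98. Their part in the Foxp3 values was not tested.

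In gamma-delta T cells none of the 4 genes that entered the test was called by limma, nor was any of the 7224 genes tested (0%), and none of the 4 had an unadjusted p under 0.05. Tnfrsf4 and Cd27 did not pass the filter on low values in that class. Tnfrsf9, at 2.78 and 4.01 in NO_AG and 3.05 and 1.63 in AG, overlapped (-0.49, SE 0.31, limma adjusted p = 0.737). Tnfrsf18, at 1.83 and 1.19 in NO_AG and 1.87 and 0.717 in AG, overlapped too (-0.24, SE 0.41). Icos and Cd28 stayed low, with at most 0.477 and 0.575 per 10000, both in AG 2. Without AG 1, which leaves AG 2 as the only AG mouse, 4 of 4 genes were called and 1820 genes in all. AG 2 stood apart in this class, with Gzmb at 23.8 against 0.425 in AG 1 and at most 0.631 in NO_AG, and Trdv4 at 36.1 against 53.3 in AG 1. AG_CPI was not compared in gamma-delta T cells because AG_CPI 1 had 6 of them.

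**Figure D3:**
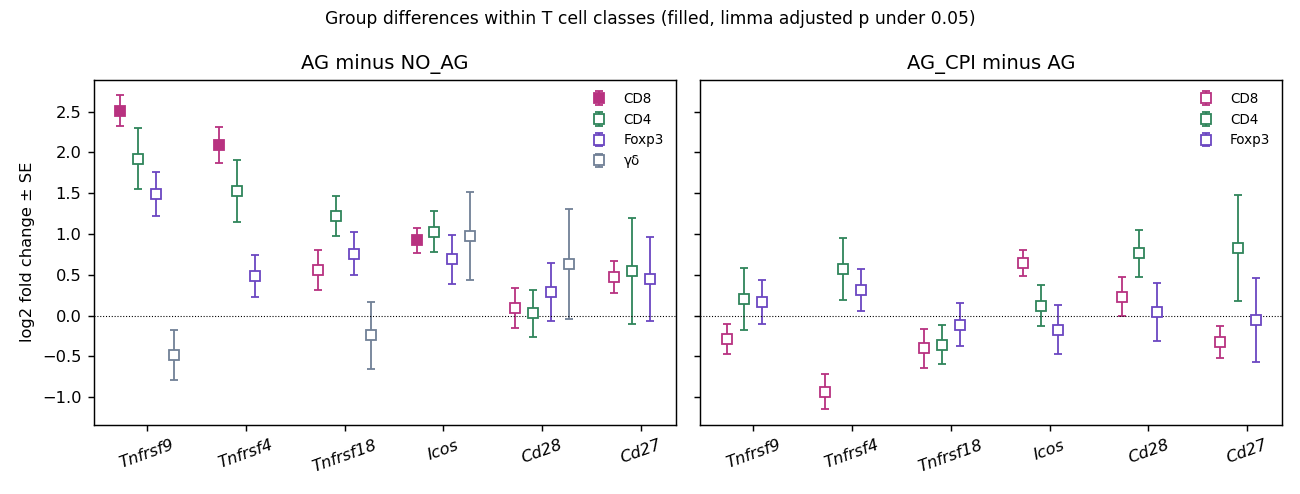
Log2 fold change with its SE (vertical axis, scale of log2 (level + 0.1)) of each receptor gene for AG minus NO_AG and AG_CPI minus AG in each T cell class. Filled squares passed the limma test; only Tnfrsf9, Tnfrsf4 and Icos of CD8 T cells in AG minus NO_AG did, at 2.51, 2.09 and 0.92.

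Adding CPI to antigen was followed by no called change of the 6 genes in any class tested. The AG mice here are those of the comparison of AG with NO_AG, and the comparison of AG_CPI with NO_AG shares the NO_AG mice. In CD8 T cells 0 of the 6 genes were called by limma, where 0.0271% of the 7384 genes tested were, and 2 of the 6 had an unadjusted p under 0.05. Icos was at 2.71 and 2.69 in AG_CPI against 1.66 and 1.77 in AG, with no overlap (0.65, SE 0.16, limma adjusted p = 0.307). Tnfrsf4 was at 0.194 and 0.272 in AG_CPI against 0.486 and 0.59 in AG, again with no overlap (-0.93, SE 0.22, limma adjusted p = 0.275). Without AG_CPI 1 the differences were 0.64 for Icos and -0.76 for Tnfrsf4, and neither passed. On the scaled log2 values the groups did not overlap, in either direction, for 5 of the 6 genes and for 37.6% of all genes tested.

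Tnfrsf9 overlapped between AG_CPI (2.37 and 1.97) and AG CD8 T cells, with a difference of -0.29 (SE 0.19, limma adjusted p = 0.967). Tnfrsf18 was at 1.24 and 1.5 in AG_CPI (-0.40, SE 0.24, limma adjusted p = 0.963) and Cd27 at 0.912 and 1.08 (-0.32, SE 0.19, limma adjusted p = 0.963), each below both AG mice. Cd28 was at 1.84 and 1.46 (0.23, SE 0.24, limma adjusted p = 0.999), above both AG mice on the scaled log2 values but not in level. Against NO_AG, AG_CPI CD8 T cells had 3 of the 6 genes called, all higher, where 2.06% of genes were called higher and 3.14% in either direction. Tnfrsf9 rose by 2.22 (SE 0.19, limma adjusted p = 0.000257), Icos by 1.57 (SE 0.16, limma adjusted p = 0.000659) and Tnfrsf4 by 1.16 (SE 0.22, limma adjusted p = 0.02). The calls of Tnfrsf9 and Icos held without each mouse in turn; that of Tnfrsf4 was lost without AG_CPI 1 (adjusted p = 0.11), AG_CPI 2 (0.2), NO_AG 1 (0.0671) or NO_AG 2 (0.0566). With a pseudocount of 0.5 Tnfrsf4 had 0.42 (adjusted p = 0.0679), and thinned to 1500 UMIs 1.14 (0.0502), and without the filter on low values its adjusted p was 0.139. Without AG_CPI 1, Tnfrsf9 had 2.11 and Icos 1.57. The 4 NK cell genes summed to 13.1 to 14.8 in AG_CPI CD8 T cells, mostly Klrd1 at 14.6 and 12.9, and the cytotoxic genes to 137.6 to 147.8. The 8 myeloid genes summed to 5.19 to 9.01 and the 8 keratinocyte genes to 2.54 to 8.57. A Trdc UMI was found in 331 of 1075 and 344 of 1184 cells. With those left out, cells with Trbv13-3 went from 626 and 795 to 406 and 503. Cells with another Trbv gene went from 140 and 187 to 125 and 181. Their part in these values was not tested.

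In CD4 T cells 0 of the 6 genes were called by limma between AG_CPI and AG, where 0.0272% of genes were, and 1 of the 6 had an unadjusted p under 0.05. That gene was Cd28, at 3.87 and 3.26 in AG_CPI, above both AG mice (0.76, SE 0.29, limma adjusted p = 0.586). Tnfrsf4 was at 15.1 and 9.46, Tnfrsf9 at 6.16 and 5.85, Icos at 6.23 and 8.75, Tnfrsf18 at 5.2 and 6.09 and Cd27 at 1.46 and 1.19. Against NO_AG, every AG_CPI value of the 6 genes lay above every NO_AG value, as in 17.5% of genes, and 5 of the 6 had an unadjusted p under 0.05. None was called (0.163% of genes were), and Tnfrsf9 (2.13, SE 0.38) and Tnfrsf4 (2.10, SE 0.38) had a limma adjusted p of 0.0597 each. Each passed in 5 of 11 other settings of the processing or the fit. Among CD4 T cells without Il2ra or Ikzf2, Tnfrsf18 turned sign (-0.11), at 2.25 and 2.13 in the NO_AG mice and 3.67 and 1.26 in the AG_CPI mice. With mice left out, both passed without AG 1, AG 2 or AG_CPI 2, and Tnfrsf9 also without NO_AG 1 (2.73, adjusted p = 0.0487). Without AG_CPI 1 neither passed, with adjusted p-values of 0.0802 for Tnfrsf9 and 0.108 for Tnfrsf4. The AG_CPI values rest on 20 and 25 cells.

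In Foxp3 T cells 0 of the 6 genes were called by limma between AG_CPI and AG (0% of genes were), and none had an unadjusted p under 0.05. AG_CPI 1 (15 cells) and AG_CPI 2 (64 cells) differed in this gate in keratinocyte genes, at 19.98 and 1.76, and in cytotoxic genes, at 33.0 and 7.86, and the part of these in the receptor values was not tested. AG_CPI 2 was the higher of its group for all 6 genes, with Tnfrsf9 at 11.5 and 16.3, Tnfrsf4 at 20.3 and 33.7, Tnfrsf18 at 9.8 and 15.3, Icos at 6.99 and 11.4, Cd28 at 1.74 and 1.79 and Cd27 at 1.08 and 3.12. Against NO_AG, 1 of the 6 was called, Tnfrsf9 with 1.66 (SE 0.27, limma adjusted p = 0.0482), where 0.0704% of genes were called higher and 0.164% in either direction. The call was lost without AG_CPI 1 (adjusted p = 0.156), AG_CPI 2 (0.0653), NO_AG 1 (0.268) or NO_AG 2 (0.363), and under 6 other settings. Tnfrsf9 ranged from 1.39 to 1.94 when mice were left out.

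Whether a group difference itself differed between classes was tested within mice. For CD8 against CD4 T cells no gene of the 6 was called by limma in AG against NO_AG (0.0269% of the 7435 genes tested were) or in AG_CPI against AG (0.0807%). An unadjusted p under 0.05 was found for Tnfrsf18 in the former and Tnfrsf4 in the latter. For CD8 against Foxp3 T cells none of the 6 was called either (0.0133% and 0% of 7497 genes were), with 2 genes under 0.05 unadjusted in each contrast. The largest was Tnfrsf4 in AG against NO_AG, whose fold change was 1.62 higher on the log2 scale in CD8 than in Foxp3 T cells (SE 0.34, limma adjusted p = 0.233). With a pseudocount of 0.5 it was 0.45, and the NO_AG level of Tnfrsf4 in CD8 T cells was near background. The rise of Tnfrsf9, Tnfrsf4 and Icos in CD8 T cells is therefore not shown to differ from that in CD4 or Foxp3 T cells.

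CD8 T cells were also split by beta segment, since P14 cells share one receptor. Cells with a Trbv13-3 UMI were set against cells with a UMI of another Trbv gene; Trbv13-3 is the beta segment of the P14 receptor and is also used by other T cells. There were 2 and 12 Trbv13-3 cells in the NO_AG mice, 468 and 465 in the AG mice and 626 and 795 in the AG_CPI mice. Cells with another segment numbered 376 and 140 in the AG mice and 140 and 187 in the AG_CPI mice. The split was added after levels had been seen, and only the 4 mice with at least 100 cells of each kind were tested. For 4 of the 6 genes, Tnfrsf9, Cd27, Icos and Cd28, both AG mice had the higher level in Trbv13-3 cells and both AG_CPI mice in cells with another segment, as did 8.62% of the 7366 genes tested.

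Tnfrsf9 was at 5.43 and 2.79 in Trbv13-3 cells of AG 1 and 2, beside 0.452 and 1.32 in cells with another segment. In AG_CPI 1 and 2 it was at 2.23 and 2.03 in Trbv13-3 cells, beside 3.55 and 2.33. The fold change from AG to AG_CPI was 2.54 lower on the log2 scale in Trbv13-3 cells than in the others (-2.54, SE 0.45, limma adjusted p = 0.00357). Cd27 was at 1.57 and 1.59 in Trbv13-3 cells of AG beside 0.94 and 0.938, and at 0.887 and 1.03 in those of AG_CPI beside 1.21 and 1.42. Its difference of fold changes was -1.05 (SE 0.22, limma adjusted p = 0.00949). In this test 2 of the 6 genes were called and 3.87% of the 7366 genes tested. Without the filter on low values neither was called (adjusted p = 0.221 for Tnfrsf9 and 0.0857 for Cd27), and Tnfrsf9 was also lost with UMIs summed over cells (0.0885).

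Tnfrsf4 had the same sign, at 0.415 and 0.344 in Trbv13-3 cells of AG beside 0.229 and 0.449, and at 0.131 and 0.226 in AG_CPI beside 0.76 and 0.456 (-1.46, SE 0.41, limma adjusted p = 0.0649). Icos differed less between the segments, at 2.0 and 2.03 beside 1.32 and 1.68 in AG and at 2.81 and 2.64 beside 2.91 and 3.05 in AG_CPI (-0.48, SE 0.19, limma adjusted p = 0.222). Cd28 was at 1.55 and 1.5 beside 1.38 and 1.27 in AG and at 1.75 and 1.44 beside 1.92 and 1.85 in AG_CPI (-0.36, SE 0.20). Neither Cd28 nor Tnfrsf18 (-0.33, SE 0.26) passed. The size for Tnfrsf9 depended on the AG mouse left out, at -1.40 without AG 1 and -3.67 without AG 2. The Cd27 call was lost without AG 1 (-1.08, adjusted p = 0.0909). Without AG_CPI 1, Tnfrsf9 had -2.29 and Cd27 -1.04, both called. Tnfrsf4 passed without AG 2 (-1.92, adjusted p = 0.0208) or without AG_CPI 2 (-2.02, adjusted p = 0.00242), but not without AG 1 (-0.99, adjusted p = 0.435) or without AG_CPI 1 (-0.88, adjusted p = 0.325). It passed in 0 of 10 other processing settings. The fit pools the spread over genes and assumes that a lone mouse varies like the others.

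**Figure D4:**
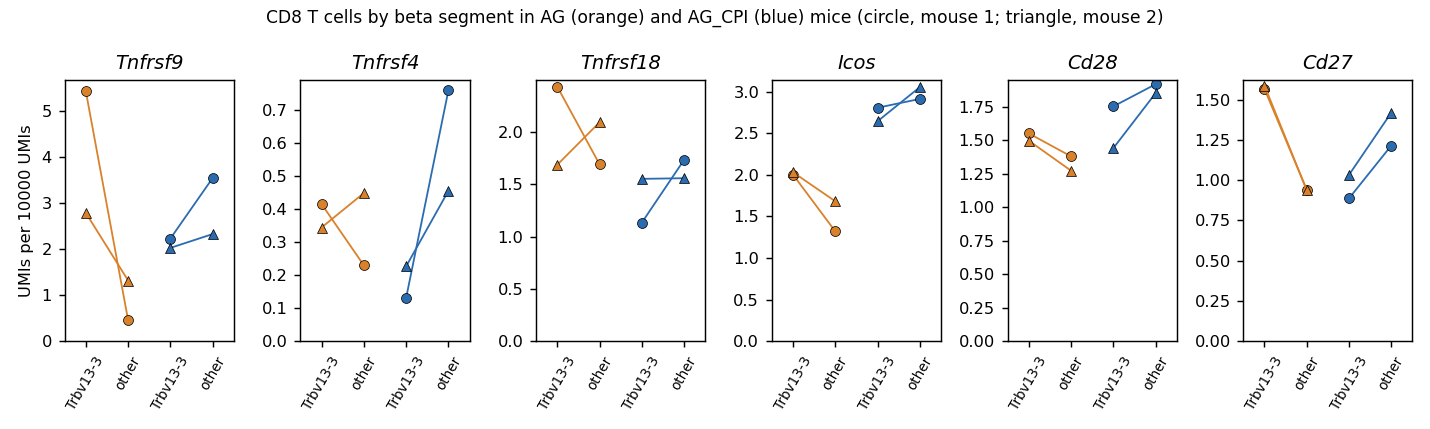
Mean level (mean UMIs scaled to 10000 per cell, axes from 0, a separate scale per gene) of each receptor gene in CD8 T cells with a Trbv13-3 UMI and with a UMI of another Trbv gene, a line joining the values of 1 mouse. Lines for Tnfrsf9, Cd27, Icos and Cd28 fall in both AG mice and climb in both AG_CPI mice, and the test called Tnfrsf9 and Cd27.

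Counted per cell, most Foxp3 T cells showed several of the 6 genes at once. After thinning to 1500 UMIs, 74.1% to 96.9% of Foxp3 T cells had UMIs of 2 or more of the genes. In CD4 T cells that share was 29.7% and 28.9% in the NO_AG mice, 57.4% and 67.7% in the AG mice and 75% and 72% in the AG_CPI mice, so NO_AG lay below the other groups. For CD8 T cells it was 18.2% and 9.36% in the NO_AG mice, 28.7% and 25.6% in the AG mice and 29.0% and 28.0% in the AG_CPI mice, with NO_AG again below. Gamma-delta T cells had 5.61% to 13.8% in NO_AG and AG, and keratinocyte-gated cells 0% to 2.62%, a gate in which Tnfrsf4 and Tnfrsf18 were themselves measured. These shares are a description, with no test.

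**Figure D5:**
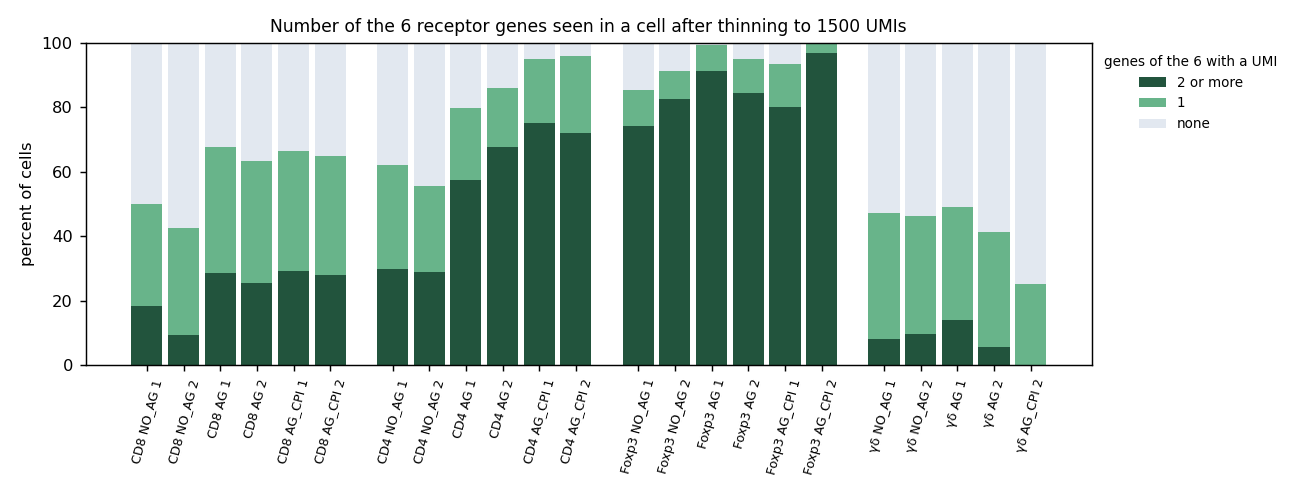
Share of cells (percent, vertical axis from 0 to 100) with UMIs of none, 1, or 2 or more of the 6 receptor genes after thinning to 1500 UMIs, 1 bar per class and mouse with at least 10 cells. The dark part covers 74.1% to 96.9% of Foxp3 T cells and 9.36% to 29.0% of CD8 T cells.

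Across the 23 means of a mouse and class with at least 10 cells, the levels of the 6 genes were compared with 3150 other genes on the log2 scale. The points share libraries and mice, and the correlations are a description. Tnfrsf4 and Tnfrsf18 had Pearson's r of 0.94 with each other, Tnfrsf4 and Icos 0.89, Tnfrsf9 and Tnfrsf18 0.83, and Cd28 and Icos 0.81. The lowest value of the 15 pairs was 0.35, for Tnfrsf9 with Cd28. The gene most like Tnfrsf4 was Cd81 (0.96), followed by Arhgap31 (0.94) and Arl5a (0.94), and the same 3 genes led for Tnfrsf18, with Arl5a first (0.95). Rora (0.94), Cmtm7 (0.93) and Ifi27l2a (0.91) were most like Icos, and Inpp4b (0.94), Ttc39b (0.91) and Nsa2 (0.87) most like Cd28. For Tnfrsf9 they were Sat1 (0.85), Fis1 (0.84) and Sdf4 (0.84), and for Cd27 Camk4 (0.88), Shisa5 (0.86) and Cyba (0.84).

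Genes were counted from 3 lists: TNF receptor adaptors and NF-kB, CD28 and ICOS signalling, and other costimulatory receptors. The last list also holds the CD40 ligand gene Cd40lg. In CD8 T cells, AG against NO_AG, none of 20 TNF receptor adaptor and NF-kB genes was called by limma, beside 1.07% of all genes called higher and 0.284% lower. Their median log2 fold change was -0.06 beside -0.05 over all genes. Of 20 genes of CD28 and ICOS signalling, 1 rose, Nfatc1, the transcription factor of the calcium pathway (1.02, SE 0.20, limma adjusted p = 0.04). That call was lost without any mouse other than AG 1, with an adjusted p of 0.0979 without AG_CPI 1. Of 12 other costimulatory receptors 7 were tested, and none was called.

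In AG_CPI against NO_AG, where 2.06% of all genes were called higher and 1.08% lower, 1 of the 20 adaptor genes rose, the survival gene Bcl2a1b (1.08, SE 0.20, limma adjusted p = 0.0199). Bcl2a1b shares sequence with close copies of the same family, so its value is uncertain. Of the 20 signalling genes 1 rose, Nfatc1 (1.09, SE 0.20, limma adjusted p = 0.0185), and 1 fell. Among the 7 other receptors, Tnfrsf1b, which encodes TNFR2, rose (0.92, SE 0.20, limma adjusted p = 0.0387) and Cd40lg, the CD40 ligand, fell by 1.81 (SE 0.37, limma adjusted p = 0.0317). None of these 4 named calls held without AG_CPI 1, where the adjusted p was 0.242 for Bcl2a1b, 0.156 for Nfatc1, 0.481 for Tnfrsf1b and 0.325 for Cd40lg, or without AG_CPI 2. No gene of these lists was called in CD4, Foxp3 or gamma-delta T cells in any contrast tested, nor in AG_CPI against AG in CD8 T cells.

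The same lists were counted between classes. Foxp3 T cells had less of 2 of 8 other receptors than CD4 T cells, Cd40lg (-3.14, SE 0.35, limma adjusted p = 0.000181) and Cd226, an activating receptor (-2.24, SE 0.36). Of 19 adaptor and NF-kB genes 1 was lower, the survival gene Bcl2 (-2.5, SE 0.40). Of 20 signalling genes 3 were lower, among them the phosphoinositide 3-kinase subunit gene Pik3cd (-1.76, SE 0.39) and Lck (-0.73, SE 0.14), the kinase of the T cell receptor. The Lck call was lost without AG 2 or NO_AG 2, and that of Pik3cd without AG 1, NO_AG 1 or NO_AG 2. No list gene was called higher there, and of all genes 0.943% were called higher and 1.43% lower. In CD8 against CD4 T cells, 2 of 20 adaptor and NF-kB genes were lower, Nfkbia (-0.87, SE 0.11, limma adjusted p = 1.61e-05) and Nfkb1 (-0.69, SE 0.18). Of 7 other receptors 1 was lower, Cd40lg (-1.84, SE 0.24), and 1 higher, Crtam, a receptor of activated CD8 T cells (1.94, SE 0.30). Of 20 signalling genes 1 was higher, Grap2 (0.78, SE 0.21). Nfkb1 and Grap2 passed only without NO_AG 2 when mice were left out. Of all genes 1.51% were called higher and 1.16% lower in that comparison.

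Gamma-delta T cells had less of 4 of 7 other receptors than CD8 T cells, Slamf1 (-2.15, SE 0.31), Cd226 (-1.96, SE 0.28), Cd40lg (-1.92, SE 0.36) and Slamf6 (-1.35, SE 0.25). Of all genes 7.7% were called higher and 6.44% lower. Among the 20 adaptor genes 2 were higher, Bcl2 (2.17, SE 0.22, limma adjusted p = 7.81e-05) and Traf5 (1.23, SE 0.23), and 2 were lower, Bcl2a1b (-1.5, SE 0.22, limma adjusted p = 0.00096) and Tnfaip3 (-0.54, SE 0.16), whose call was lost in 4 of 5 fits with a mouse left out. Of the 20 signalling genes 3 were higher, Pik3cd (1.36, SE 0.12), Pik3r1 (1.31, SE 0.17) and Bcl10 (0.85, SE 0.15), and 2 were lower, Fyn (-0.70, SE 0.18) and Prkcq (-0.75, SE 0.22). With a mouse left out, the call of Fyn was lost in 3 of 5 fits and that of Prkcq in 4 of 5.

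Ligands of the receptors were read in cells without a Cd3 UMI. Cd86, a ligand of CD28, was at 0.104 and 0.108 in the NO_AG mice, 0.191 and 0.503 in the AG mice and 0.72 and 0.619 in the AG_CPI mice. Cd80, the other CD28 ligand listed, was at 0.00713 and 0.00643, 0.0286 and 0.124, and 0.18 and 0.143 in the same order. In AG_CPI 1 these are the cells that stood apart in Ddx3y and Xist. Without it, AG_CPI 2 lay above both AG mice for both genes, by little for Cd80 (0.143 against 0.124), and the AG mice lay above the NO_AG mice. Tnfsf9, the 4-1BB ligand, was between 0.033 and 0.0731 and Icosl between 0.0473 and 0.113. Cd70, the CD27 ligand, was at 0.0385 and 0.047 in the NO_AG mice, 0.0299 and 0.00488 in the AG mice and 0 and 0.007 in the AG_CPI mice. Tnfsf4 and Tnfsf18, the OX40 and GITR ligands, had at most 4 UMIs in any mouse. These are levels over a mixture of cell types whose shares differ between mice, with no test.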

How the data were processed

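Skin cells of 6 mice were profiled with a 10x Genomics 5' kit, per the labels' protocols. The submitters' processing notes name Cell Ranger 3.1 and the build mm10. The deposited tables give log10 of a scaled UMI number increased by 1, with each cell scaled to 10000 UMIs. No header states this; it was read from the values, since inverting log10 returned whole UMIs for 100% of them. The genes given account for 95.4% to 96.7% of a library's UMIs, cells have 1501 to 14995 UMIs, and libraries total 5903724 to 24656382.

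Cells with under 200 genes or over 20% mitochondrial UMIs were dropped (51 of 21178), as were the 667 with the highest Scrublet scores (scanpy 1.11.5), a share proportional to each library's cell number. CD8 T cells with a Trdc UMI were kept only with a Trac UMI. Linear values were averaged per mouse and class, TMM-scaled, and taken to log2 with a pseudocount of 0.1, which understates fold changes of low genes. A gene entered with 10 UMIs and a mean of 0.1 in at least 2 libraries, and a class with 10 cells in a mouse. Tests used limma 3.58.1 in R 4.3.3 with a trended prior, group as the only term (mouse as a block between classes), and Benjamini-Hochberg adjustment over all genes tested. The procedure was tested on simulated data. With 2 mice per group an exact permutation test cannot go below 0.333, so the group tests borrow their spread from all genes and all groups. The genes, lists and classes were chosen with earlier results of these data known. Named genes are the 6 receptors, list genes past the threshold (up to 4 per list and contrast, smallest p first) and the 3 most correlated genes per receptor. Alternatives changed the pseudocount, filter, scaling, doublet removal, gates, averaging, depth and mice used. Replicate numbers did not pair mice: correlations of their deviations were -0.03, 0.03 and -0.06. Some results of the signalling gene list are not reported here.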

Additional observations from a re-analysis of the deposited data

Results flagged for a closer look

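The effect of CPI in CD8 T cells differed between cells with a Trbv13-3 UMI and cells with another Trbv segment for 2 of the 6 receptor genes, by a test of the difference itself over 4 mice. For Tnfrsf9 the log2 fold change of AG_CPI against AG was lower by 2.54 in Trbv13-3 cells (-2.54, limma adjusted p = 0.00357), and for Cd27 by 1.05 (-1.05, limma adjusted p = 0.00949). Without the filter on low values neither was called. The Cd27 call was lost without AG 1 (adjusted p = 0.0909), and the Tnfrsf9 value was -1.40 without AG 1 and -3.67 without AG 2. Both AG mice had more of either gene in Trbv13-3 cells and both AG_CPI mice had more in the others, as also for Icos and Cd28, which the test did not call, and for 8.62% of the 7366 genes tested. The comparison was chosen after the levels had been seen. No group had enough mice to look for a single mouse far from the rest.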

How the results depend on the processing

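Counts are of the 6 genes called. Without the filter on low values, Foxp3 against CD4 T cells had 2 in place of 4, CD8 T cells in AG against NO_AG had 1 in place of 3, and the Trbv13-3 comparison 0 in place of 2. In CD4 T cells, AG_CPI against NO_AG had 2 in place of 0 with UMIs summed over cells, with the deposited scaling alone, with doublets kept and with a pseudocount of 0.5, and AG against NO_AG had 1 with summed UMIs. With the replicate number as a block these CD4 counts were 2 and 1, and no other count moved by over 1.5 times. Tnfrsf9 of Foxp3 T cells in AG_CPI against NO_AG was no longer called (0 in place of 1) with summed UMIs, at least 1 Cd3 UMI, doublets kept, a cut on keratin UMIs, no filter, or cells thinned to 1500 UMIs. The Trbv13-3 comparison had 1 with summed UMIs. Leaving out 1 mouse at a time, the counts ran from 0 to 2 in CD4 T cells and from 0 to 1 in Foxp3 T cells for AG_CPI against NO_AG, from 0 to 4 in gamma-delta T cells and from 1 to 3 by beta segment. Signs reversed for Tnfrsf9 between CD8 and CD4 T cells (1.22) and Tnfrsf18 of CD4 T cells in AG_CPI against NO_AG (-0.11) without Il2ra or Ikzf2 cells, and for Tnfrsf9 between gamma-delta and CD8 T cells without NO_AG 1 (-0.0052) or NO_AG 2 (-0.16), in a range of -0.16 to 1.18 over the mice left out. The cause was not tested. There were 20 to 108 CD4 and 15 to 160 Foxp3 T cells per mouse, and the part of these numbers in the calls was not tested.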
